A study of Chlorocebus aethiops with 12 samples.

Results

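The 147 transcripts described here are RefSeq accessions whose array signal was lower with the synthetic glucocorticoid dexamethasone (Dex) than with vehicle in both transfections of the study. Only accessions starting with NM_ were considered. Such an accession was a member when at least 1 of its probes passed the scanner's background test on each of the 12 arrays. The same probe had to have a mean Dex change at or below -0.4 on the log2 scale both in S211A+MDFIC cells and in S211A cells. Of 14918 such accessions with a probe detected on all 12 arrays, 148 met these conditions. NM_018933 was left out by the rule, which leaves 147 accessions measured by 166 qualifying probes. These were among 20515 probes of such accessions detected on all 12 arrays, called the detected probes below. The members were thus chosen by the 2 measured Dex changes, which are given below as a description and carry no test.

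RNA levels were measured with one-colour Agilent arrays in COS-1, a kidney cell line from the African green monkey with fibroblast-like morphology. The 4 groups of 3 biological replicates were cells transfected with S211A and MDFIC and given 100 nM Dex, the same transfection given vehicle, cells transfected with S211A alone and given 100 nM Dex, and the S211A transfection given vehicle, each treated for 6 h. Every group therefore carried the S211A form of the glucocorticoid receptor, in which a phosphorylated serine is replaced by alanine, and no group carried the wild-type receptor. Cells were transfected with FuGENE6 and kept in medium with charcoal-stripped serum, so each sample is a transfected culture, and the share of cells that took up the plasmids was not measured on these arrays. The arrays carry a human design, so a signal reports monkey RNA bound to a human probe.

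The glucocorticoid receptor is a transcription factor that is held inactive in the cytoplasm until a steroid binds it and then moves to the nucleus. There it raises the transcription of some genes through its response elements and lowers others, in part by interfering with factors such as AP-1 and NF-kappaB and in part by binding repressive sites itself. The mutated serine lies in the amino-terminal region of the human receptor, and its phosphorylation increases with hormone. MDFIC, the MyoD family inhibitor domain containing protein, is a binding partner of the receptor. The files pair no accession with a gene name, so members are named by accession, their functions are not given, and the labelled cell type was not checked against marker genes.

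All levels below are log2 signals relative to the array's 75th percentile, and a Dex change is the mean of the 3 Dex arrays minus the mean of the 3 vehicle arrays. Where an accession had several qualifying probes, the one with the highest mean signal stands for it. Only qualifying probes could stand for an accession, also where another of its probes was brighter. The share of spots well above background was 77.0% to 81.3% on slides 2 and 3 and 68.8% to 72.6% on slide 1. The arrays lay on 3 slides of 4. All S211A+MDFIC Dex arrays were on slide 3 with vehicle replicate 3 of that transfection, and its vehicle replicates 1 and 2 shared slide 2 with replicates 2 and 3 of S211A Dex. Replicate 1 of S211A Dex was on slide 1, together with every S211A vehicle array.

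S211A Dex replicate 2 stood apart from its group for part of the members. Without it, 47 of the 147 members no longer met the rule by any probe, whereas leaving out any other single array lost between 4 and 15 of them. Over all detected probes, 168 lay at least 0.8 below both fellow replicates on this array and 111 lay at least 0.8 above both. S211A Dex replicate 1 and S211A+MDFIC Dex replicate 2 had more than 100 such low probes as well, at 220 and 138, and each of the other 9 arrays had at most 42. The S211A median, the separation of the treatments and the difference between the Dex changes are given with and without S211A Dex replicate 2.

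The median member was 1.54-fold lower with Dex in S211A+MDFIC cells and 1.46-fold lower in S211A cells, at log2 changes of -0.62 and -0.55. Without S211A Dex replicate 2 the S211A median was -0.47. The changes ran between -1.42 and -0.40 in S211A+MDFIC cells and between -1.23 and -0.41 in S211A cells. At least a 2-fold lower signal was measured for 10 members in S211A+MDFIC cells, for 6 in S211A cells and for 3 in both. In 45 members both changes were at or below -0.6, and in 18 both were at or below -0.8. Over all 20515 detected probes the median Dex change was 0.01 in either transfection. Of those probes, 555 lay at or below -0.4 in S211A+MDFIC cells, 482 in S211A cells and 167 in both, while 568 lay at or above 0.4 in both. Lower signal at matched scaling can mean fewer cells that hold a transcript or less of it per cell, and the arrays cannot tell these apart.

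**Figure D1:**
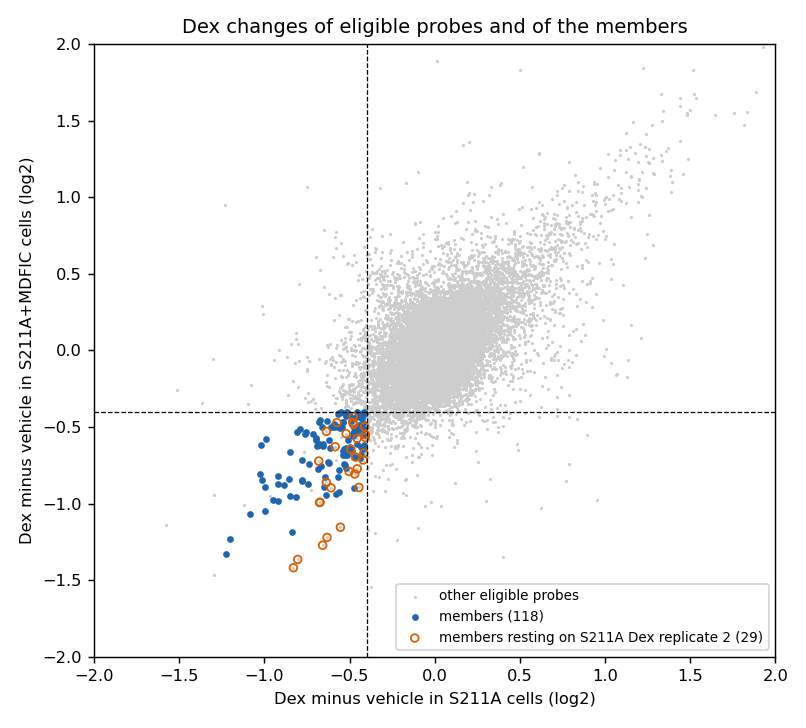
Dex minus vehicle (log2) in S211A cells (x axis) and in S211A+MDFIC cells (y axis) for the detected probes in grey and the 147 members in colour, with dashed lines at -0.4 and 11 probes beyond the axes not drawn. The members fill the lower left corner, which the rule fixes, and the 29 open circles are members whose S211A change rested on replicate 2.

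Within S211A+MDFIC cells the 3 Dex arrays lay below the 3 vehicle arrays for 133 members, or 90.5%, against 16.5% of all detected probes. Within S211A cells the same held for 118 members, or 80.3%, against 13.3%, and in both transfections for 115 members, or 78.2%, against 6.48%. Because the rule used these arrays, the member shares are given only beside the background and nothing is read from them. In 102 members all 6 Dex arrays lay below all 6 vehicle arrays, against 4.07% of detected probes. Without S211A Dex replicate 2, the remaining 2 S211A Dex arrays lay below the vehicle arrays for 118 members, against 18.3%. The median SD between replicates of a group was 0.10 over the members and 0.09 over the detected probes. In S211A+MDFIC cells the members' median SD was 0.15 with Dex and 0.08 with vehicle. In S211A cells it was 0.13 with Dex and 0.08 with vehicle. The rule used these arrays and the SD over detected probes was not split by treatment, so the split is not read as an effect of Dex.

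Of the 12 members with the lowest mean of both Dex changes, 9 met the rule with any 1 array left out. The lowest of all was NM_004864, with levels of 3.55, 3.45 and 3.48 in S211A+MDFIC Dex cells, against 4.76, 4.92 and 4.80 in S211A+MDFIC vehicle cells. Its S211A Dex levels were 3.64, 3.60 and 3.46, against 4.76, 4.80 and 4.83 in S211A vehicle cells. The 6 Dex arrays lay within a narrow band more than 1 log2 unit under the 6 vehicle arrays, a signal 2.52-fold lower with MDFIC and 2.34-fold lower with S211A alone.

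NM_000782 followed, at -0.98, -1.45 and -1.34 in S211A+MDFIC Dex cells, against 0.16, -0.10 and -0.13 in S211A+MDFIC vehicle cells, and at -1.33, -1.37 and -1.27 in S211A Dex cells, against -0.28, -0.05 and -0.04 in S211A vehicle cells. The treatments did not overlap in either transfection, and the signal was 2.35-fold lower with MDFIC and 2.30-fold lower with S211A alone. It was 1 of 17 members with more than 1 qualifying probe, and probes of an accession share its transcript. NM_003897 was the third member past a 2-fold lower signal in both transfections. It stood at 2.30, 2.24 and 2.28 in S211A+MDFIC Dex cells, against 3.35, 3.31 and 3.36 in S211A+MDFIC vehicle cells, and at 2.38, 2.39 and 2.35 in S211A Dex cells, against 3.46, 3.47 and 3.44 in S211A vehicle cells. Its replicates lay close together in every group, and its Dex changes were -1.07 with MDFIC and -1.09 with S211A alone.

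NM_003670 was at -1.24, -1.30 and -1.28 in S211A+MDFIC Dex cells, against -0.19, -0.29 and -0.21 in S211A+MDFIC vehicle cells, and at -1.47, -1.36 and -1.22 in S211A Dex cells, against -0.37, -0.36 and -0.34 in S211A vehicle cells. NM_004083 gave 1.62, 1.52 and 1.65 in S211A+MDFIC Dex cells, against 2.62, 2.54 and 2.58 in S211A+MDFIC vehicle cells, and 1.49, 1.68 and 1.55 in S211A Dex cells, against 2.41, 2.55 and 2.52 in S211A vehicle cells. Both accessions had all 6 Dex arrays under all 6 vehicle arrays, and their signal was between 1.90-fold and 2.06-fold lower in either transfection.

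NM_002228 stood at 2.92, 2.97 and 2.84 in S211A+MDFIC Dex cells, against 3.83, 3.99 and 3.84 in S211A+MDFIC vehicle cells, and at 3.33, 3.37 and 3.13 in S211A Dex cells, against 4.39, 4.29 and 3.99 in S211A vehicle cells. The treatments did not overlap within either transfection, and the Dex changes were -0.98 with MDFIC and -0.95 with S211A alone. NM_006145 was at 2.88, 3.20 and 2.77 in S211A+MDFIC Dex cells, against 4.15, 4.11 and 4.15 in S211A+MDFIC vehicle cells, and at 2.98, 3.29 and 3.12 in S211A Dex cells, against 4.03, 3.92 and 3.95 in S211A vehicle cells. Its Dex arrays spread more widely than its vehicle arrays, with replicate 2 the highest of the Dex arrays in both transfections, and no Dex array reached a vehicle array.

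The bright member NM_005345 had 3 qualifying probes. The one that stands for it read 4.83, 4.61 and 4.93 in S211A+MDFIC Dex cells, against 5.74, 5.62 and 5.68 in S211A+MDFIC vehicle cells, and 4.84, 4.62 and 4.69 in S211A Dex cells, against 5.68, 5.66 and 5.81 in S211A vehicle cells. Its signal was 1.85-fold lower with MDFIC and 2.00-fold lower with S211A alone. NM_005920 was at -2.18, -2.82 and -2.03 in S211A+MDFIC Dex cells, against -1.52, -1.43 and -1.55 in S211A+MDFIC vehicle cells, and at -2.75, -2.07 and -2.18 in S211A Dex cells, against -1.47, -1.37 and -1.13 in S211A vehicle cells. One Dex array in each transfection, replicate 2 with MDFIC and replicate 1 with S211A alone, lay well under its fellows, and the groups still did not overlap.

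**Figure D2:**
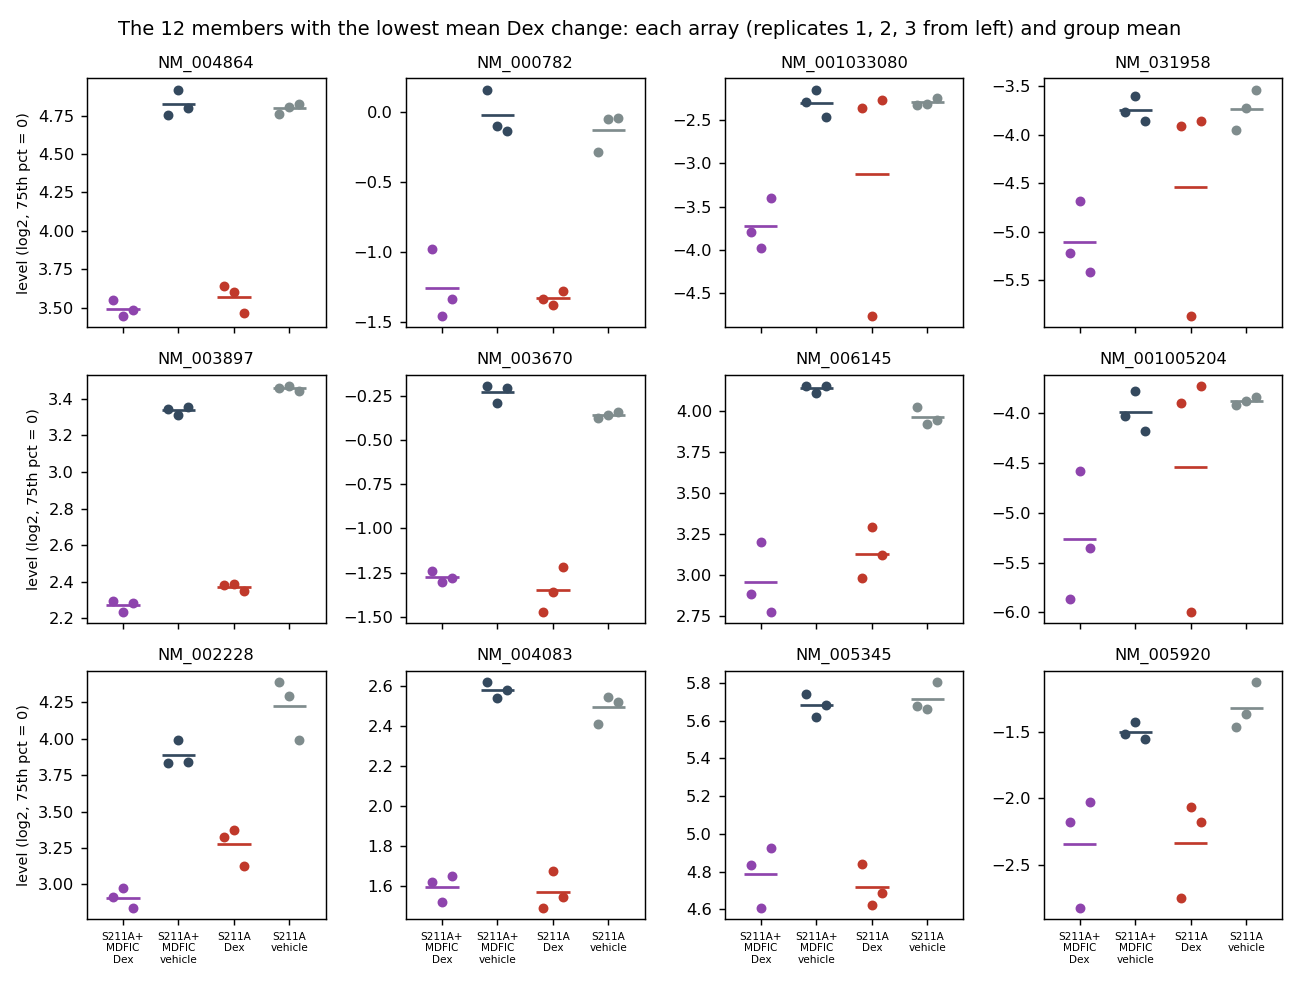
Level on each array (y axis, log2 relative to the 75th percentile) of the 12 members with the lowest mean Dex change, 1 panel each, with the groups in columns, each replicate as a point and the group mean as a line. In 9 panels the Dex points lie together below the vehicle points in both transfections. In NM_001033080, NM_031958 and NM_001005204 a single S211A Dex point lies far below the other S211A points.

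In the other 3 of the 12 the S211A change rested on replicate 2. NM_001033080 was at -2.36, -4.75 and -2.27 in S211A Dex cells, against -2.33, -2.32 and -2.25 in S211A vehicle cells. NM_031958 was at -3.91, -5.86 and -3.86 in S211A Dex cells, against -3.95, -3.73 and -3.54 in S211A vehicle cells. NM_001005204 was at -3.90, -5.99 and -3.73 in S211A Dex cells, against -3.92, -3.88 and -3.84 in S211A vehicle cells. In each, replicates 1 and 3 lay among or close to the vehicle arrays, and replicate 2 alone was far under both.

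In S211A+MDFIC cells the same 3 accessions were low on all Dex arrays. NM_001033080 read -3.79, -3.98 and -3.40 with Dex, against -2.29, -2.15 and -2.47 with vehicle. NM_031958 read -5.22, -4.68 and -5.41 with Dex, against -3.77, -3.60 and -3.85 with vehicle. NM_001005204 read -5.87, -4.58 and -5.35 with Dex, against -4.03, -3.78 and -4.18 with vehicle. No Dex array of that transfection overlapped a vehicle array for any of them.

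Altogether 29 members had an S211A Dex change above -0.2 over replicates 1 and 3 alone, a bound chosen after the values were seen. Their median changes on the single S211A Dex arrays were -0.06 on replicate 1, -1.58 on replicate 2 and 0.07 on replicate 3, each against the mean of the vehicle arrays. Replicate 2 was between -2.45 and -0.92, while the mean of the other 2 replicates ran between -0.16 and 0.17 and was above 0 in 12 of the 29. In S211A+MDFIC cells their median changes on the 3 Dex arrays were -0.96, -0.80 and -0.57, and 20 of the 29 had Dex arrays all below vehicle arrays. Their median level was low, at -3.89, and single members ran between -5.18 and -0.14. The 118 other members had median Dex changes of -0.61 in S211A+MDFIC cells and -0.56 in S211A cells. Whether a property of that array or of that culture gave these values was not tested.

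The 29 were NM_152864, NM_001012515, NM_001004467, NM_001957, NM_181519, NM_001005204, NM_001001920, NM_001678, NM_153357, NM_006507, NM_017539, NM_016563, NM_020962, NM_000501, NM_001033080, NM_016347, NM_014638, NM_033057, NM_021819, NM_002479, NM_003975, NM_000675, NM_018654, NM_031958, NM_004473, NM_003019, NM_016531, NM_003225 and NM_213622. By the probe that stands for the accession, 19 more members lost the rule without S211A Dex replicate 2, with S211A changes over replicates 1 and 3 between -0.40 and -0.22. These were NM_002761, NM_130901, NM_000499, NM_003332, NM_006080, NM_173846, NM_001040147, NM_001012288, NM_016831, NM_182898, NM_012294, NM_032784, NM_030651, NM_001038640, NM_001031716, NM_016545, NM_198256, NM_014388 and NM_025074.

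A stricter subset holds the 71 members whose probe in use here met the rule with any 1 array left out, a condition added after the data had been seen. Their median Dex change was -0.66 in S211A+MDFIC cells and -0.65 in S211A cells, and their median level of -0.88 compares with -3.09 for the remaining members. Arrays were also compared within slides. Slide 3 holds 3 S211A+MDFIC Dex arrays with 1 vehicle array, and slide 1 holds 1 S211A Dex array with 3 vehicle arrays. The rule used all of these arrays, so the values within slides are largely fixed by the choice of members. Shares over all detected probes were not computed for them, and nothing is read from the counts. Within slide 3 the median Dex change of the 147 members was -0.63, all 147 were below 0 and 126 were at or below -0.4. Within slide 1 the median was -0.47, 139 were below 0 and 93 were at or below -0.4, and 82 members were at or below -0.4 on both slides. For the 71 members of the stricter subset, the medians within slides 3 and 1 were -0.68 and -0.61, and 70 and 64 of them were at or below -0.4.

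**Figure D3:**
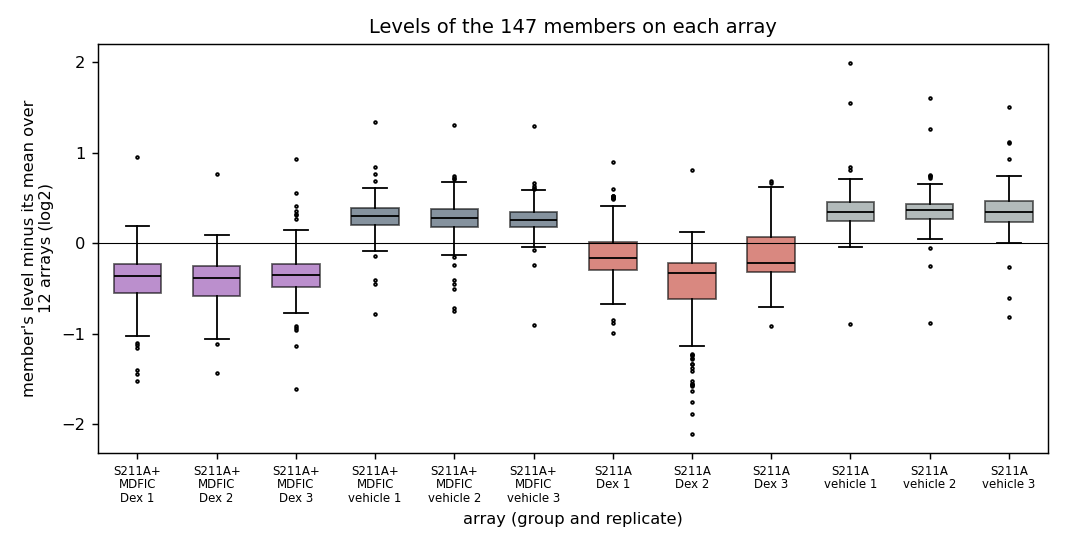
Deviation of each member from its own mean over the 12 arrays (y axis, log2) by array (x axis), with boxes from the lower to the upper quartile of the 147 members, a line for the median and points beyond the whiskers. The Dex arrays have medians between -0.39 and -0.17 and the vehicle arrays between 0.26 and 0.37, and S211A Dex replicate 2 has the longest lower tail.

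The array medians of these deviations describe each array as a whole, and the rule used the same arrays. They were -0.36, -0.39 and -0.36 in S211A+MDFIC Dex cells, against 0.30, 0.28 and 0.26 in S211A+MDFIC vehicle cells. They were -0.17, -0.33 and -0.22 in S211A Dex cells, against 0.35, 0.37 and 0.35 in S211A vehicle cells. The S211A+MDFIC Dex arrays were nearly level with each other, and the S211A Dex arrays spread about a lesser shift, with replicate 2 the lowest. Members did not move evenly on the S211A Dex arrays. On replicates 1 and 3, 108 of the 147 lay below their own mean on each, against 142 on replicate 2. On the S211A+MDFIC Dex arrays these counts were 140, 144 and 136.

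The rule put both Dex changes of a member at or below -0.4, which itself favours changes of like size. Their difference was not tested because the rule used both. Shares over all detected probes were not computed for it, and nothing is read from the closeness. The Dex change in S211A+MDFIC cells minus that in S211A cells had a median of -0.05, was within 0.2 of 0 in 107 members and was negative in 90. It was below -0.4 in 7 members and above 0.4 in 2. Without S211A Dex replicate 2 the median difference was -0.09, with 84 members within 0.2 of 0, 98 negative, 31 below -0.4 and 2 above 0.4. The 3 lowest differences belonged to NM_001005204 at -0.61, NM_153357 at -0.60 and NM_001033080 at -0.59, all of them members whose S211A change rested on replicate 2. NM_153357 read -3.89, -3.84 and -3.25 in S211A+MDFIC Dex cells, against -2.55, -2.43 and -2.55 in S211A+MDFIC vehicle cells, and -2.35, -4.13 and -2.31 in S211A Dex cells, against -2.34, -2.52 and -2.27 in S211A vehicle cells. Without that array its S211A Dex change was 0.048.

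At the other end were 3 members with a larger negative Dex change in S211A cells. NM_172006 had a difference of 0.41, with 1.56, 1.38 and 1.55 in S211A+MDFIC Dex cells, against 2.07, 1.92 and 2.24 in S211A+MDFIC vehicle cells, and 1.15, 1.29 and 1.13 in S211A Dex cells, against 2.32, 2.05 and 2.18 in S211A vehicle cells. NM_002281 had a difference of 0.28, with Dex changes of -0.51 in S211A+MDFIC cells and -0.79 in S211A cells. Neither of these had overlapping treatments in a transfection. NM_198403, a dim probe, had a difference of 0.40, with -5.37, -5.02 and -5.05 in S211A+MDFIC Dex cells, against -4.42, -4.84 and -4.32 in S211A+MDFIC vehicle cells, and -4.66, -4.86 and -5.05 in S211A Dex cells, against -3.75, -3.33 and -4.43 in S211A vehicle cells. Its S211A vehicle arrays spread over more than 1 log2 unit, which is wider than the difference itself.

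Signals of the members were low for detected probes. Their median level was -2.08, against -0.82 over all detected probes, and they ran between -5.54 and 6.65. Signal depends on each probe and on its match to the monkey transcript, so it does not rank the transcripts by abundance. When the detected probes were cut into 4 equal bins of signal, 52 members fell in the dimmest, 45 in the next, 24 in the third and 26 in the brightest. Dex and vehicle arrays were apart in both transfections for 25 of the 52, 40 of the 45, 24 of the 24 and 26 of the 26, against 2.48%, 6.75%, 9.42% and 7.29% of the detected probes in these bins. The median of the mean Dex change lay between -0.62 and -0.56 in every bin.

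The 3 brightest members had tight replicates. NM_001554 was at 6.37, 6.43 and 6.26 in S211A+MDFIC Dex cells, against 6.93, 6.85 and 6.83 in S211A+MDFIC vehicle cells, and at 6.51, 6.45 and 6.43 in S211A Dex cells, against 6.96, 6.95 and 6.85 in S211A vehicle cells. NM_013376 had Dex changes of -0.51 in S211A+MDFIC cells and -0.45 in S211A cells, and NM_005345 is given above. The treatments were apart on all arrays for these 3.

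The 3 dimmest members were less clear. NM_000834 read -5.84, -6.28 and -5.44 in S211A+MDFIC Dex cells, against -5.24, -5.35 and -5.23 in S211A+MDFIC vehicle cells, and -5.78, -5.76 and -5.78 in S211A Dex cells, against -5.20, -5.49 and -5.11 in S211A vehicle cells. NM_213622 read -5.46, -5.93 and -4.86 in S211A Dex cells, against -5.22, -4.95 and -4.83 in S211A vehicle cells, and NM_020861 read -5.08, -5.45 and -5.54 in S211A+MDFIC Dex cells, against -4.52, -5.17 and -4.98 in S211A+MDFIC vehicle cells. Treatments overlapped for NM_213622 in S211A cells and for NM_020861 in S211A+MDFIC cells. With another background correction (normexp), the S211A+MDFIC change of NM_000834 was 0.013.

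The threshold divides accessions with nearly equal values. Just inside it were NM_025074, with Dex changes of -0.40 in S211A+MDFIC cells and -0.41 in S211A cells, NM_024721 with -0.40 and -0.55, and NM_198256 with -0.40 and -0.45. Just outside, on the S211A side, were NM_001266 with -0.78 in S211A+MDFIC cells and -0.40 in S211A cells, NM_003542 with -0.44 and -0.40, and NM_078487 with -0.48 and -0.40.

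Further probes of the same accessions, which did not meet the rule, were read on the same arrays and are described without a test. The array carries 1 probe for 79 members and several for 68, and all probes met the rule in 13 of the 68. Of 68 other probes, 50 were detected on every one of the 12 arrays, belonging to 45 accessions. Both Dex changes were below 0 for 32 of the 50, or 64%, against 30.1% of detected probes of other accessions, above 0 for 8 and of mixed sign for 10. Their medians were -0.20 in S211A+MDFIC cells and -0.15 in S211A cells. A probe that met the rule would have been counted among the qualifying ones, so these other probes could not lie at or below -0.4 in both. In some accessions the other probe was brighter than the qualifying one, and in others it was dimmer. For NM_001012515 it was at 0.94 against -4.59, and changed by -0.17 in S211A+MDFIC cells and -0.05 in S211A cells. For NM_213622 it was at -0.23 against -5.18, with changes of -0.11 and -0.10. For NM_001364 it was at -3.76 against 0.30, with changes of 0.16 and -0.09. Of the 29 members that rested on S211A Dex replicate 2, 5 of 10 other probes were below 0 in both transfections, and of the 118 others 27 of 40 were.

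The 8 accessions with another probe above 0 in both transfections were NM_000675, NM_001012426, NM_001012981, NM_001038640, NM_014268, NM_014638, NM_016831 and NM_181519. The widest gap was in NM_001038640, whose other probe changed by 1.89 in S211A+MDFIC cells and by 0.01 in S211A cells, against -0.52 and -0.47 for its qualifying probe. The other probe of NM_181519 changed by 0.74 and 0.31, against -0.48 in either transfection for the qualifying one. NM_001012426 had 1 other probe at 0.73 and 0.01 and another at -0.03 and 0.06. In the remaining 5 accessions the probe above 0 in both changed by 0.07 to 0.30 in S211A+MDFIC cells and by 0.04 to 0.17 in S211A cells. Which probe reports the monkey transcript was not tested.

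**Figure D4:**
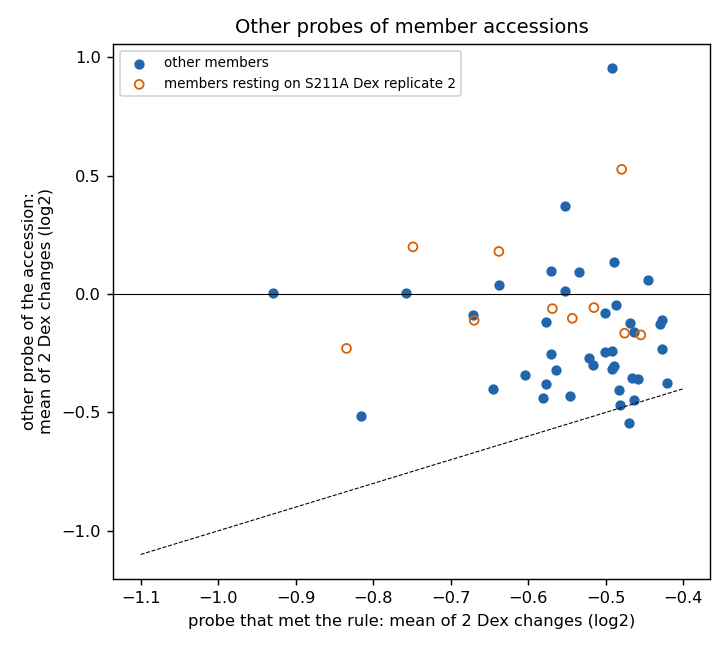
Mean of the 2 Dex changes (log2) of each of the 50 other detected probes (y axis) against that of the qualifying probe of its accession (x axis), with a dashed line where both are equal. Most other probes lie below 0 but above the dashed line, and the open circles are accessions whose S211A change rested on replicate 2.

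The effect of MDFIC averaged over Dex and vehicle is a contrast that the rule did not use, though it comes from the same arrays. It is uncorrelated with the Dex changes only where the groups spread alike. Among the members the median SD was 0.15 and 0.13 in the Dex groups, against 0.08 in either vehicle group. The shares below are therefore not fully independent of the choice of members. The effect was fitted with limma over 31224 probes, two-sided, with Benjamini-Hochberg adjustment over all of them. A probe was called at an adjusted p under 0.05. Among the 147 members 10 were called, or 6.80%, against 1.35% of all probes tested and 1.29% of the detected probes that could have been members. Of the 10, 2 were higher and 8 lower with MDFIC, against 0.589% and 0.756% of all probes and 0.512% and 0.780% of the detected ones. Slide and transfection overlap here, because no slide held both transfections under the same treatment. With slide as a fixed block, 1 of the 147 was called, against 0.157% of all probes. The 10 members kept the sign of their effect in that fit.

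NM_001337 had the lowest MDFIC effect. It was at -4.79, -4.70 and -4.87 in S211A+MDFIC Dex cells, against -2.36, -2.45 and -2.63 in S211A Dex cells, and at -4.04, -4.00 and -4.16 in S211A+MDFIC vehicle cells, against -1.71, -1.65 and -1.75 in S211A vehicle cells. All 6 arrays with MDFIC lay under all 6 without it, and in each transfection the Dex arrays lay under the vehicle arrays. The averaged effect was -2.34 (SE 0.06, n = 6 arrays against 6, limma adjusted p = 4.84e-08). With slide as a block it was -2.12 (SE 0.11, limma adjusted p = 0.00143), and it passed in all 24 alternatives, at adjusted p between 6.52e-10 and 0.00143. The effect ran between -2.38 and -1.48 over these alternatives, and the value nearest 0 came with normexp, which also gave Dex changes of -0.30 in S211A+MDFIC cells and -0.65 in S211A cells, against -0.72 and -0.78 without it.

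NM_003975 had the highest effect. It was at 0.81, 0.62 and 0.79 in S211A+MDFIC Dex cells, against -1.13, -2.26 and -1.06 in S211A Dex cells, and at 1.20, 1.16 and 1.15 in S211A+MDFIC vehicle cells, against -1.03, -1.03 and -0.96 in S211A vehicle cells. All 6 arrays with MDFIC lay above all 6 without it, which among the members held otherwise only for NM_001337 in the opposite direction and in 1.89% of detected probes in either. Its averaged effect was 2.20 (SE 0.18, n = 6 arrays against 6, limma adjusted p = 2.94e-04). With slide as a block it was 2.57 (SE 0.40) at a limma adjusted p of 0.11, the highest of its 24 alternatives, the lowest being 2.29e-07. The S211A Dex change of this accession is one of those that rested on replicate 2, whereas its S211A+MDFIC Dex arrays were all below their vehicle arrays.

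The remaining 8 called members had smaller effects, between -0.71 and 0.30. NM_002442 was lower with MDFIC by a log2 effect of -0.71 (SE 0.12, limma adjusted p = 0.0284). NM_005527 had -0.31, NM_001364 and NM_001012981 had -0.26, NM_002158 had -0.26, and NM_024721 and NM_021158 had -0.21, at limma adjusted p between 0.0137 and 0.0423. NM_003251 was higher by 0.30 (limma adjusted p = 0.0452). For these 8 the slide block gave limma adjusted p between 0.459 and 0.793, and the number of the 24 alternatives in which each passed ran from 8 for NM_003251 to 21 for NM_001364. Without scaling between arrays, which moved the median effect of all probes to 0.13, the 7 negative effects lay between -0.59 and -0.09 and that of NM_003251 was 0.42.

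Over all members the averaged MDFIC effect had a median of -0.10, against -0.01 over the detected probes, and was below 0 in 109 of the 147. It was above 0 in 25.9% of the members, against 47.0% of the detected probes. It was within 0.2 of 0 in 102 members, and the median 95% interval reached 0.16 to either side. An unadjusted p under 0.05 was found for 44 members, against 18.1% of all probes tested. With slide as a block the median was 0.01, 68 members were below 0 and 12 had an unadjusted p under 0.05, against 7.26% of all probes tested. The count within 0.2 of 0, and the count below 0 with the slide block, have no share over all probes beside them, and nothing is read from them.

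The count of called members moved with single arrays, and so did the 420 calls over all probes. It was 3 without S211A vehicle replicate 1 (197 probes in all) or S211A+MDFIC vehicle replicate 2 (190 probes). It was 4 without S211A Dex replicate 1 (244 probes), S211A+MDFIC vehicle replicate 1 (181 probes) or S211A+MDFIC vehicle replicate 3 (230 probes). It was 5 without S211A vehicle replicate 2 (252 probes) or S211A+MDFIC Dex replicate 1 (240 probes), and 6 without S211A Dex replicate 3 (269 probes). The count was 16 without S211A+MDFIC Dex replicate 2 (796 probes) or S211A Dex replicate 2 (328 probes).

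**Figure D5:**
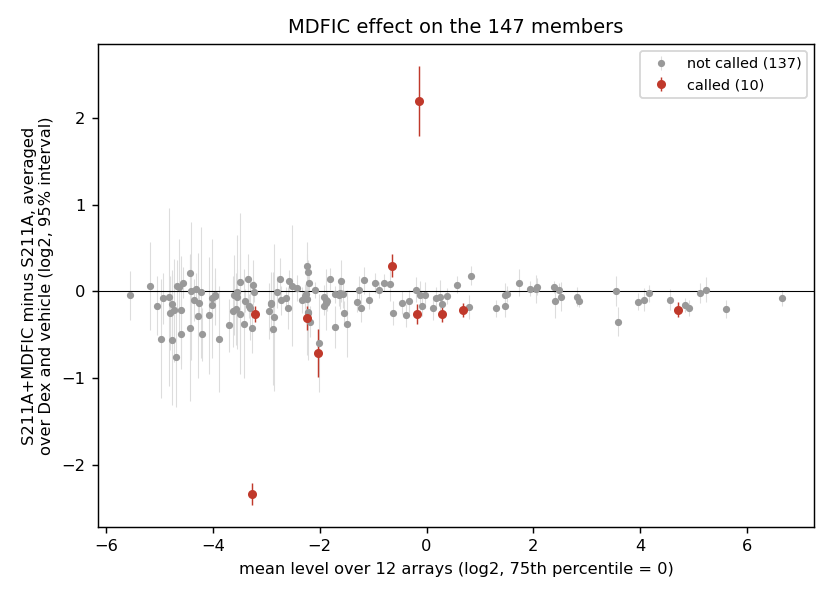
Averaged MDFIC effect of each member (y axis, log2, S211A+MDFIC minus S211A, with 95% intervals, no slide term) against its mean level over the 12 arrays (x axis, log2), with the 10 called members in red. NM_001337 at -2.34 and NM_003975 at 2.20 lie far from the other members, and the dim members on the left have the widest intervals.

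The other 107 members, in order of the mean of their 2 Dex changes, fall into 7 ranges. Means at or below -0.8 were found for 12, which were NM_006507, NM_002849, NM_014903, NM_002392, NM_033035, NM_000641, NM_002546, NM_020962, NM_003225, NM_006290, NM_001008727 and NM_001964. Their changes ran between -1.22 and -0.80 in S211A+MDFIC cells and between -1.03 and -0.63 in S211A cells. The next 11, with means between -0.8 and -0.7, were NM_016300, NM_002761, NM_000201, NM_130901, NM_017539, NM_144717, NM_019113, NM_000499, NM_006622, NM_001010977 and NM_033057. These had changes between -0.95 and -0.66 in S211A+MDFIC cells and between -0.85 and -0.56 in S211A cells.

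A further 25 had means between -0.7 and -0.6. They were NM_001135599, NM_003332, NM_198270, NM_004907, NM_198828, NM_004226, NM_001012515, NM_002506, NM_002521, NM_018654, NM_001145340, NM_006080, NM_013369, NM_173846, NM_004419, NM_021101, NM_001491, NM_021724, NM_000602, NM_001040147, NM_001678, NM_001040619, NM_016347, NM_002769 and NM_005438. Their changes lay between -0.90 and -0.53 in S211A+MDFIC cells and between -0.81 and -0.45 in S211A cells. Means between -0.6 and -0.55 were found for 17, namely NM_080759, NM_052947, NM_014391, NM_001012288, NM_001001920, NM_006785, NM_003019, NM_053056, NM_014330, NM_000569, NM_006469, NM_002479, NM_005681, NM_001957, NM_003238, NM_004496 and NM_182898. In this range the changes lay between -0.72 and -0.46 in S211A+MDFIC cells and between -0.68 and -0.42 in S211A cells.

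Means between -0.55 and -0.5 belonged to 14 members, NM_012294, NM_144697, NM_014689, NM_001956, NM_021819, NM_170735, NM_016563, NM_019096, NM_006472, NM_032784, NM_004473, NM_030651, NM_018719 and NM_152655. They changed by -0.64 to -0.47 in S211A+MDFIC cells and by -0.57 to -0.42 in S211A cells. Means between -0.5 and -0.45 belonged to 21, NM_002173, NM_032776, NM_002229, NM_152864, NM_182507, NM_030955, NM_003877, NM_001004467, NM_000501, NM_006504, NM_203403, NM_006988, NM_005933, NM_001031716, NM_001199814, NM_015550, NM_003633, NM_013960, NM_005041, NM_017447 and NM_016531. They changed by -0.57 to -0.40 in S211A+MDFIC cells and by -0.57 to -0.41 in S211A cells. The last 7, with means between -0.45 and -0.4, were NM_016639, NM_016545, NM_002175, NM_002427, NM_152407, NM_014388 and NM_001946, with changes between -0.47 and -0.41 in S211A+MDFIC cells and between -0.46 and -0.41 in S211A cells.

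Among these 107, NM_006507, NM_020962 and NM_003225 in the lowest range are again members whose S211A change rested on replicate 2. Their S211A changes on replicate 2 alone were -1.97, -2.02 and -1.70, and over replicates 1 and 3 they lay between -0.16 and 0.04. Of the 107, NM_001001920 had the widest gap between replicate 2, at -2.02, and replicates 1 and 3, at a mean of 0.06.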

How the data were processed

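RNA from 12 COS-1 cultures, labelled with Cy3, was read on one-colour Agilent arrays, per the labels' protocols. Each deposited file gives a linear intensity for 45015 spots. Per the file headers, Feature Extraction 12.0.0.7 produced these intensities and subtracted the local background. Detection and outlier flags are those deposited by the authors. The authors' table of the whole series repeats these intensities without a difference.

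Groups were taken from the sample titles, 3 biological replicates each per the labels. Processed signals were converted to log2 and scaled to the 75th percentile of each array's non-control spots, which cover 41000 probes, and the spots of a probe were averaged. The 1639 control spots were left out. No spot was saturated. The rule kept the 945 outlier spots and the limma fit left them out, with 2 members affected. The number of arrays, 3 per group, limits the precision. The p-values set an effect against the spread between replicate cultures, pooled over the 4 groups and moderated across probes. Where the replicates of a group lay on different slides, that spread can also hold slide differences.

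The MDFIC effect was fitted with limma 3.58.1 in R 4.3.3 over all 12 arrays, by contrasts of 4 group means. A probe was tested if some group had it well above background on its 3 arrays and each group kept at least 2 values, with 31224 probes fitted. With 3 arrays per group this contrast is orthogonal to both Dex contrasts, and it is uncorrelated with them only where the groups spread alike. Among the members the median SD was larger in the Dex groups than in the vehicle groups. The fit was tested on simulated data with independent values, the same spread in every group and no slide effect. That test cannot show how the fit behaves with slide differences or unequal spreads. Figures were drawn with matplotlib 3.10.9.

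The members and lists were chosen with earlier results of these data known. Named in full are the 12 members with the lowest mean Dex change, and with fewer values the called members, up to 10, the 3 largest and 3 smallest differences between Dex changes, the 3 brightest and 3 dimmest, the 3 nearest the threshold on each side, and members with another probe above 0 in both Dex comparisons. The gene lists, marker genes and promoter motifs that were planned need gene symbols or sequences and were not analysed here. The alternatives were normexp with an offset of 50, median centring, quantile normalization, no scaling, outlier spots kept or left out, a block for slide (fixed or random) or for replicate number, other filters, moderation, thresholds and probe choices, and each array left out.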

Additional observations from a re-analysis of the deposited data

How the results depend on the processing

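Members by the rule numbered 64 with normexp, all of them among the 147, 245 with median centring and 226 with quantile normalization, 336 at a threshold of -0.3, 78 at -0.5 and 71 where any 1 array could be left out; single arrays gave 121 to 183, and slide as a block gave 138, of which 84 were shared. Median Dex changes were -0.44 in S211A+MDFIC cells and -0.41 in S211A cells with normexp, and the S211A median was -0.65 in the 71. Called members for MDFIC, 10 of 147, became 6 with normexp, 6 with median centring, 2 without scaling, 1 with slide as a fixed block, 21 with slide as a random block (correlation -0.07), 20 with trend and robust moderation and 3 to 16 without single arrays. The 420 called probes became 255 with normexp, 154 without scaling, and 49 and 1119 with the fixed and random slide block. Their number was 634 when the filter of the fit was well above background on all 12 arrays. It was 826 with trend and robust moderation and 181 to 796 without single arrays. Without scaling the median MDFIC effect over all probes was 0.13, against 0.0022 with the 75th percentile, and calls split into 132 higher and 22 lower, against 184 and 236. Correlations between the deviations of same-numbered replicates ran from -0.24 to 0.25. With 3 replicates per group and slides that overlap with groups, they cannot settle whether the numbers pair the samples. With the replicate block, 7 members and 254 probes were called, and the Dex medians were -0.62 and -0.55. In S211A cells 8 members had a Dex change above 0 with the slide block and 12 without S211A Dex replicate 2. Among the 40 members named by the rule for named genes, it turned above 0 for NM_000834 in S211A+MDFIC cells with normexp (0.013), in S211A cells with the slide block for NM_153357 (0.030) and NM_181519 (0.11), and without S211A Dex replicate 2 for NM_153357 (single arrays -0.86 to 0.048), NM_181519 (single arrays -0.77 to 0.075) and NM_001005204 (single arrays -1.06 to 0.069). Normexp was run on the median signal. The causes were not tested. Gene lists under Dex were not run, since no table pairs accessions with genes. Dim probes limit the rest: 52 of 147 members lay in the dimmest of 4 equal bins of detected probes.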
